A study of Mus musculus with 6 samples.

Results

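The genes described here are 49 genes whose products act in G2 and mitosis, and they were taken by name from the array annotation. Probe sets annotated with exactly 1 of these symbols were found for 48 of the 49, out of 19938 genes in all, and Ccnb1 was not analysed here. Where a symbol had more than 1 probe set, which was the case for 1 gene (Top2a), the brighter was used. The cells were bone marrow-derived mast cells of miR-155 KO and of WT mice, both on the C57BL/6J strain, raised in culture over 5 weeks with IL-3 at 0.5 ng/ml plus SCF at 1 ng/ml. Both genotypes received the same treatment, an overnight load of 0.2 µg/ml anti-DNP IgE followed by 1 h with 20 ng/ml of its antigen, DNP-HSA. Each genotype was represented by 3 independent cultures with 1 Affymetrix Mouse Gene 1.0 ST array each, and no unstimulated sample was analysed here. How the KO allele was made, the age of the mice and whether a culture came from 1 mouse or several are unstated in the labels.

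Entry into mitosis is driven by CDK1 bound to cyclin A or cyclin B, and the aurora and polo kinases then build the spindle. The spindle assembly checkpoint holds the anaphase-promoting complex (APC/C) back until every kinetochore is attached, after which securin and cyclin B are destroyed and the cell divides. Transcripts of most of these genes accumulate in G2 and M and are scarce in resting cells. In cultured mast cells, division depends on IL-3 and SCF. In RNA from a whole culture, fewer dividing cells and less RNA per dividing cell cannot be told apart.

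The microRNA that the KO cells lack is shown first, because its absence is the only stated difference between the groups. The mature sequence is from RefSeq (GRCm38.p6, chr16:84714143-84714165, plus strand), with the seed, bases 2 to 8, in capitals.
mmu-miR-155-5p: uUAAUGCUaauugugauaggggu

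Genes of this kind are held down in resting cells through a promoter element called the cell cycle genes homology region (CHR), which is bound by the MuvB complex, and many carry CCAAT boxes bound by NF-Y. RefSeq promoter windows (GRCm38.p6, 250 bases before to 50 after the annotated start) were listed for 39 of the 48 genes, in 42 windows. The CHR was searched as TTTGAA, as the form TTTAAA and as the form TTCGAA, the CCAAT box as CCAAT and 1 form of E2F site as GCGCGAA, each on both strands and without regard to overlap. A CHR form was present in 37 of the 42 windows (88.1%), against 28.8% of all 32851 windows. TTTGAA alone was in 78.6% of the 42 windows and in 17.9% of all windows. CCAAT was in 34 of the 42 windows (81.0%), against 37.4% of all, and both elements were in 76.2%, against 11.3% of all. GCGCGAA was in 1 window, that of Cdk1. Restricted to the 21263 windows of protein-coding genes, the shares for a CHR form and for CCAAT were 26.5% and 38.2%. The 5 genes with a listed window and no CHR form were Nuf2, Nek2, Mad2l1, Fzr1 and Pttg1. The only Pttg1 window, chr11:43425932-43426231 on the minus strand, lies inside the gene, whose listed 5' end is at 43427463. It therefore does not cover the sequence before that end. A match is a description of letters and not of a bound site.

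The promoters of 5 genes are printed to show how these elements are laid out. Apart from Cdk1 and Ccnb2, named for the central kinase and one of its cyclins, they are the genes with the lowest p in 3 of the role groups described below. They are Cdc25b (chr2:131186698-131186997, plus strand), Cenpf (chr1:189688037-189688336, minus strand), Prc1 (the first of 2 listed windows, chr7:80294201-80294500, plus strand), Ccnb2 (chr9:70421505-70421804, minus strand) and Cdk1 (chr10:69352863-69353162, minus strand). All are written in the direction of transcription, with the matches named above in capitals.
Cdc25b: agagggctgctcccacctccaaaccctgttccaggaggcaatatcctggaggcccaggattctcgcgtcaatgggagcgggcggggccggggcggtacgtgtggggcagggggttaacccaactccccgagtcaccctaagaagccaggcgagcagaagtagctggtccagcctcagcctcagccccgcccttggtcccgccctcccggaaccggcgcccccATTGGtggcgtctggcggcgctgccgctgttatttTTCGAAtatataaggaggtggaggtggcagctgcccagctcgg
Cenpf: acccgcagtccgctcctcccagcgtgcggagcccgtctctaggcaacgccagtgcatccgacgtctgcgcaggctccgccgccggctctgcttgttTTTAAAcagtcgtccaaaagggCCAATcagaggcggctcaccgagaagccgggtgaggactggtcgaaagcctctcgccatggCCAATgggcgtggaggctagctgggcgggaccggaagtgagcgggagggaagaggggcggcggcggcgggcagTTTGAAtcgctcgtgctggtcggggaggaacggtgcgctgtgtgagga
Prc1: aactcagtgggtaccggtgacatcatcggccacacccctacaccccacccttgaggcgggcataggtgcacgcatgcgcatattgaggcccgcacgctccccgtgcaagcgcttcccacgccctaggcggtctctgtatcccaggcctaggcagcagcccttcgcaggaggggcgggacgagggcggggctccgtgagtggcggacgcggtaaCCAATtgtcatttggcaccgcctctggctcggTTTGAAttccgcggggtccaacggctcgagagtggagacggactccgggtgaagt
Ccnb2: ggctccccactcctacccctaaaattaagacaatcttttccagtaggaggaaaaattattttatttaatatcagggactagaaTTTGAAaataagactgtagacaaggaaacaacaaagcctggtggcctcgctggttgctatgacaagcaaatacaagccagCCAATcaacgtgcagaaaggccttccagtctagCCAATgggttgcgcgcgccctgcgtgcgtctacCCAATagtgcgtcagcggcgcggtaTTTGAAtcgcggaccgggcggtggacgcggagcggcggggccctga
Cdk1: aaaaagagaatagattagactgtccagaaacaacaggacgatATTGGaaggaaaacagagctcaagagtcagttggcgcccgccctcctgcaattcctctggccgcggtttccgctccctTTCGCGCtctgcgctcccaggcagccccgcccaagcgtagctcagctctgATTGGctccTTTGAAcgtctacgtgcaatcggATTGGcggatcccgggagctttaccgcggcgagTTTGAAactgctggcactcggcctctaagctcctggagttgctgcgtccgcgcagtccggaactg
In each of the 5, a CHR form lies close to the annotated start. It begins 5 bases before the start in Prc1 and 15 bases before it in Cdk1, and 2, 4 and 7 bases after it in Cenpf, Ccnb2 and Cdc25b. CCAAT boxes stand upstream of it, 3 in Ccnb2, 2 in Cenpf and 1 in Prc1, and on the opposite strand 3 in Cdk1 and 1 in Cdc25b. Cenpf, Ccnb2 and Cdk1 each hold a second CHR form farther upstream, 154, 167 and 71 bases before the start.

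All values below are log2 intensities from the authors' RMA, in which a step of 1 is a factor of 2. KO replicate 1 stood apart from the other 5 arrays over all genes. It lay at -32.0 on the first principal component, which held 48.3% of the variance, with the other KO arrays at -5.36 and -7.31 and all WT arrays positive, from 10.6 up to 19.5. The cells carried mast cell markers on every array. Fcer1a, the IgE-binding receptor chain, read 11.99, 12.12 and 12.19 on the KO arrays and 12.03, 11.95 and 12.20 on the WT arrays. The 11 measured mast cell markers averaged 9.90, 10.01 and 10.04 on the KO arrays and 9.87, 10.01 and 10.01 on the WT arrays. Single markers did not all follow that average. KO replicate 1 was below all WT arrays for 6 of the 11, against 29.9% of all genes. It was above all of them for 2, Hdc and Mcpt4, against 28.8% of all genes.

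Mitosis and G2 genes were lower on average in miR-155 KO than in WT cultures, and KO replicate 1 carried most of that difference. Averaged over the 48 genes, the level was 4.82, 5.62 and 6.11 on KO replicates 1, 2 and 3, and 6.15, 5.59 and 6.35 on WT replicates 1, 2 and 3. KO replicate 1 was the lowest of the 6 arrays, KO replicate 2 and WT replicate 2 lay 0.03 apart, and KO replicate 3 lay 0.04 below WT replicate 1. The groups therefore overlapped. The group means were 5.52 ± 0.66 in KO and 6.03 ± 0.40 in WT (SD, n = 3 each), a difference of -0.52, or 1.43-fold lower in KO. This difference was smaller than the range among the KO arrays (1.30) and the range among the WT arrays (0.77). Relative to the average of the WT arrays, the 3 KO arrays lay at -1.22, -0.41 and 0.08 in order of replicate. KO replicate 1 thus accounted for 78.6% of the summed departure of the 3 KO arrays. Without it the difference was -0.17, and the other 2 KO arrays averaged 5.87. KO replicate 1 minus the mean of KO replicates 2 and 3 was -1.05, a factor of 2.07.

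Gene by gene, 0 of the 48 passed the test between genotypes. The test was limma over all 19938 genes, and a gene was called where its Benjamini-Hochberg adjusted p was under 0.05, as 0.823% of all genes were (0.316% lower and 0.507% higher in KO). All 48 differences were negative, against 52% of all genes, and they ran from -0.996 to -0.03 with a median of -0.53, where the median over all genes was -0.01. At an unadjusted p under 0.05 there were 5 genes (Ccnb2, Cdc25b, Cenpf, Ncapd2 and Espl1), all lower in KO, as 6.45% of all genes were. The lowest adjusted p was 0.177, for Cdc25b. Leaving out KO replicate 1 gave 0 calls again (0.517% of all genes, 0.155% lower in KO), with 3 genes at an unadjusted p under 0.05, Ccnb2, Cdc25b and Espl1 (4.9% of all genes). The median difference then shrank to -0.14, and 43 of the 48 genes stayed negative, against 52.1% of all genes. The 5 that changed sign were Ttk, Birc5, Incenp, Kif23 and Ube2c. In 46 of the 48 genes the difference moved nearer to 0, the exceptions being Cenpa and Fzr1. Leaving out KO replicate 3 instead gave 1 call, Espl1, which was lower in KO (0.371% of all genes were called, 0.14% lower in KO), and 30 genes at an unadjusted p under 0.05, all lower in KO (6.79% of all genes).

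**Figure D1:**
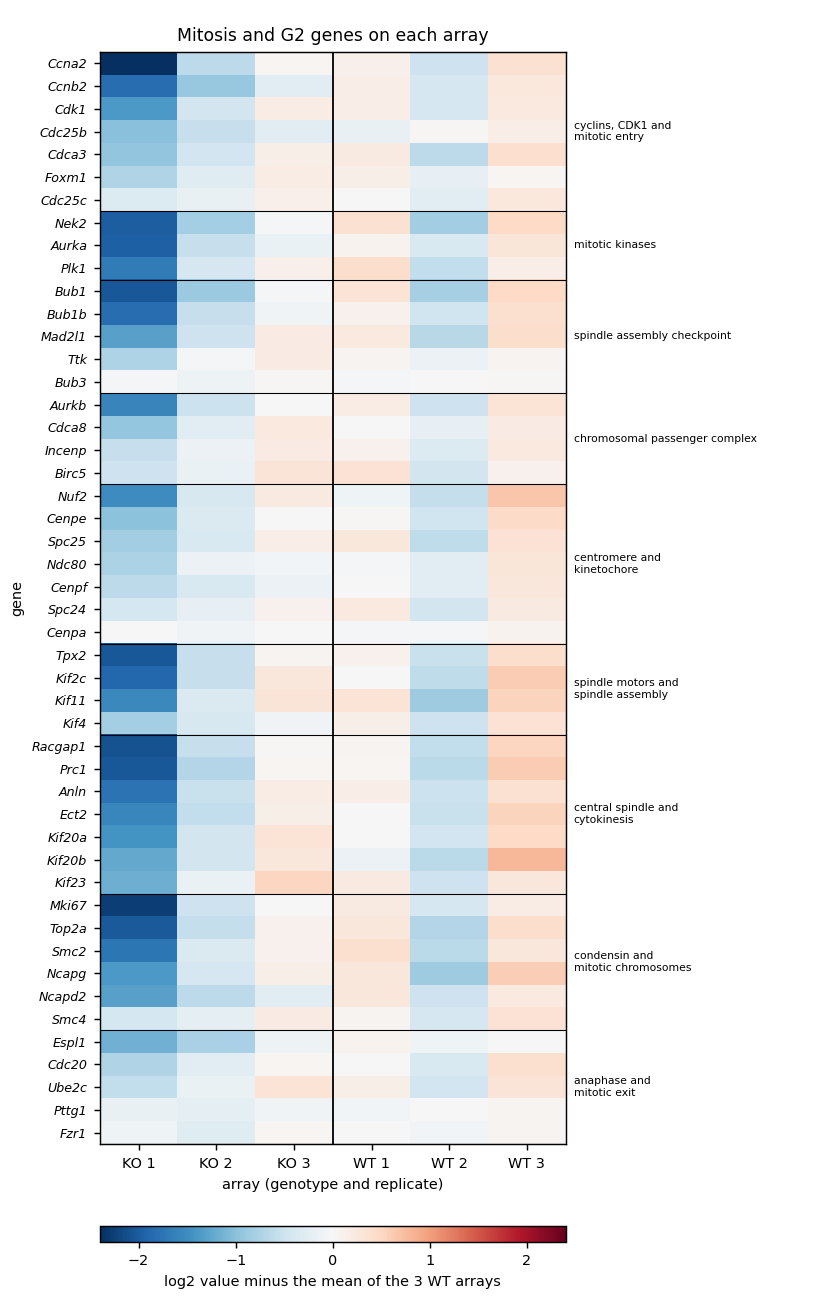
Log2 value of each of the 48 genes on each array minus the mean of the 3 WT arrays for that gene, as colour (blue is lower, red higher), with genes in rows grouped by role and arrays in columns. The KO 1 column is the darkest blue in most rows, KO 2 and WT 2 are pale blue, and Bub3, Cenpa, Pttg1 and Fzr1 are nearly white throughout.

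The order of the arrays was much the same from gene to gene. KO replicate 1 was the lowest array for 43 of the 48 genes, against 22.1% of all genes, and it was below all 3 WT arrays for 46 of them, against 29.9% of all genes. KO replicate 2 was below all WT arrays for 22 of the 48 genes (27.2% of all genes) and KO replicate 3 for 3 (25.8% of all genes). KO replicate 2 was below the WT mean for all 48 genes (53.5% of all genes) and KO replicate 3 for 13 (50.3% of all genes). WT replicate 3 was the highest array for 35 genes, against 19.6% of all genes. KO replicate 1, KO replicate 2 and WT replicate 2 were the 3 lowest arrays for 43 of the 48 genes, where this held for 6.18% of all genes. That trio was chosen after the values were seen. For 25 of the 48 genes KO replicate 1 lay at least 1 log2 unit below the mean of KO replicates 2 and 3, as did 0.527% of all genes. These 25 made up 23.8% of the 105 genes with such a gap, and other cell cycle genes supplied a further 33 of them, 17 from a list of 58 other mitosis genes and 16 from a list of 48 S phase genes.

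Cyclins, CDK1 and genes of mitotic entry averaged 4.50, 5.24 and 5.75 on the KO arrays and 5.82, 5.39 and 5.97 on the WT arrays over 7 genes. Ccnb2 encodes a B-type cyclin and had the largest difference of the 48 genes. It read 4.62, 5.52 and 6.19 on the KO arrays and 6.59, 6.03 and 6.69 on the WT arrays. KO replicate 3 was above WT replicate 2, so the groups overlapped at a single pair of arrays, and the difference was -0.996 (SE 0.35, adjusted p = 0.258 by limma) with all arrays and -0.58 (SE 0.24, adjusted p = 0.456) without KO replicate 1. Cdc25b, a phosphatase that activates cyclin-CDK complexes, read 3.79, 4.26 and 4.55 on the KO arrays and 4.63, 4.83 and 4.95 on the WT arrays. Its 3 KO arrays all lay below its 3 WT arrays, as in 9.05% of all genes, and WT replicate 2 was not low for this gene. The difference was -0.61 (SE 0.18, adjusted p = 0.177 by limma), and -0.40 (adjusted p = 0.319) without KO replicate 1.

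Ccna2, the cyclin of S phase and G2, lay farthest from the WT mean on KO replicate 1, at -2.38. It read 4.92, 6.68 and 7.35 on the KO arrays and 7.44, 6.81 and 7.67 on the WT arrays, and only KO replicate 1 and KO replicate 2 lay below all WT arrays. Its difference of -0.99 (SE 0.53) came down to -0.29 (SE 0.26) without KO replicate 1. Cdk1, the mitotic kinase itself, read 5.67, 6.63 and 7.23 on the KO arrays and 7.22, 6.66 and 7.29 on the WT arrays. KO replicate 2 was just below the lowest WT array and KO replicate 3 inside the WT range, and the difference was -0.55 (SE 0.34, adjusted p = 0.600 by limma) with all arrays and -0.13 without KO replicate 1. Foxm1, the transcription factor that switches on many G2 genes, read 4.27, 4.71 and 5.18 on the KO arrays and 5.13, 4.81 and 5.05 on the WT arrays. Its lowest array was KO replicate 1 and its highest KO replicate 3, and its difference was -0.27 (SE 0.20). Cdca3, which helps to trigger mitotic entry, differed by -0.42. Cdc25c, another CDK-activating phosphatase, differed by -0.13 at a WT mean of 3.66, which is no higher than the array medians of 3.67 to 3.74, so a difference in this gene could not have been seen well.

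The mitotic kinases had the largest average difference of the 9 role groups, at 4.34, 5.63 and 6.19 on the KO arrays and 6.50, 5.62 and 6.52 on the WT arrays over 3 genes. Aurka, which matures centrosomes and the spindle poles, read 4.25, 5.66 and 6.05 on the KO arrays and 6.30, 5.84 and 6.50 on the WT arrays. KO replicate 1 minus the WT mean was -1.96, and the difference of -0.89 (SE 0.40, adjusted p = 0.407 by limma) was -0.36 without it. Nek2, a kinase of centrosome separation, read 3.77, 4.95 and 5.73 on the KO arrays and 6.12, 4.92 and 6.22 on the WT arrays, with KO replicate 2 and WT replicate 2 side by side. Plk1, the polo kinase, read 5.00, 6.28 and 6.81 on the KO arrays and 7.10, 6.10 and 6.85 on the WT arrays. For Plk1 only KO replicate 1 was outside the WT range, and the difference of -0.65 (SE 0.42) was -0.14 without it.

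**Figure D2:**
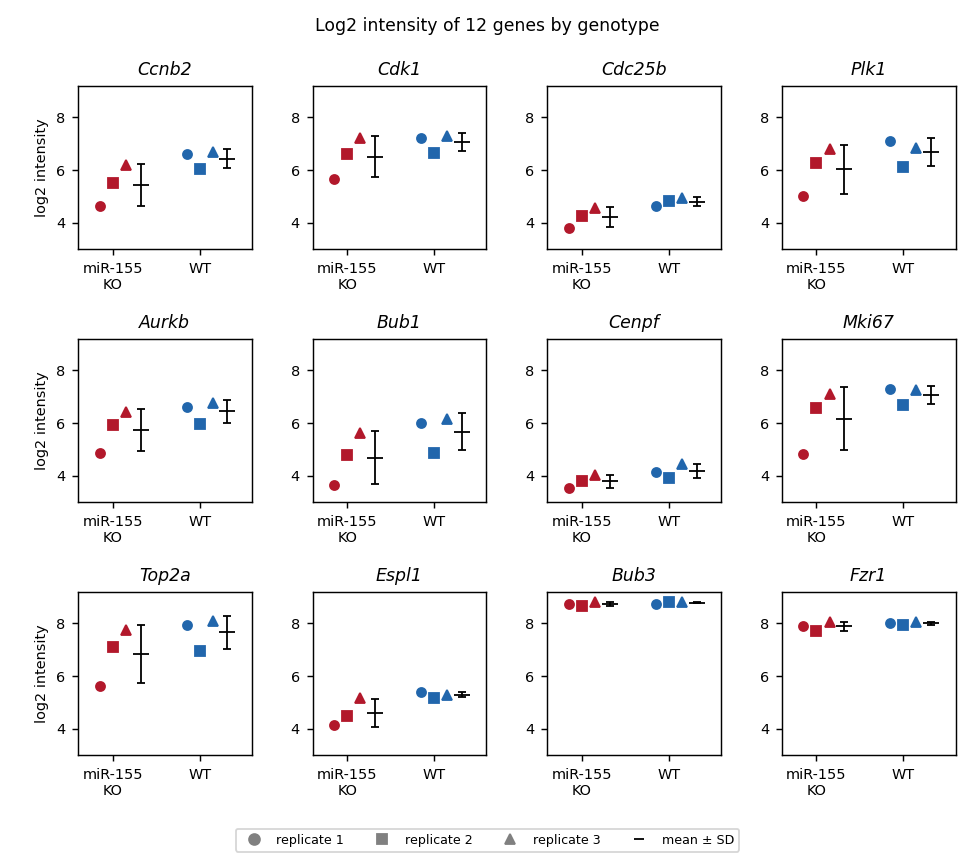
Log2 intensity (vertical axis) of 12 genes in miR-155 KO (red, left) and WT (blue, right) cultures, with 1 symbol per replicate and the group mean ± SD in black (n = 3 arrays each). KO replicate 1 is the lowest point for 10 of the genes shown, and Bub3 and Fzr1 lie nearly level.

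Among the 5 genes of the spindle assembly checkpoint, 4 followed the common order and Bub3 did not. Bub1, a checkpoint kinase of the kinetochore, read 3.64, 4.79 and 5.64 on the KO arrays and 6.01, 4.88 and 6.15 on the WT arrays. Its difference of -0.99 (SE 0.49, adjusted p = 0.460 by limma) was the second largest of the 48 genes, and it was -0.47 without KO replicate 1. Bub1b, which encodes the checkpoint protein BubR1, read 4.87, 6.15 and 6.62 on the KO arrays and 6.79, 6.22 and 7.08 on the WT arrays, so KO replicate 2 was just below the lowest WT array. Mad2l1, which encodes the inhibitor of the APC/C activator Cdc20, differed by -0.53 (SE 0.38), and Ttk, the kinase MPS1, by -0.20 at a WT mean of 3.95, close to the array medians. Bub3, a partner of Bub1 and BubR1, read 8.74, 8.67 and 8.83 on the KO arrays and 8.76, 8.80 and 8.82 on the WT arrays. It was the brightest of the 48 genes, its arrays spanned less than 0.2, and KO replicate 1 was not its lowest array.

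The 4 genes of the chromosomal passenger complex, which corrects faulty attachments and later acts in cytokinesis, averaged 4.74, 5.36 and 5.81 on the KO arrays and 5.78, 5.26 and 5.84 on the WT arrays. Aurkb, its kinase, read 4.87, 5.92 and 6.43 on the KO arrays and 6.62, 5.95 and 6.77 on the WT arrays. KO replicate 2 and WT replicate 2 were again alike, and the difference was -0.71 (SE 0.36, adjusted p = 0.487 by limma) with all arrays and -0.27 without KO replicate 1. Birc5, which encodes survivin, read 3.89, 4.25 and 4.71 on the KO arrays and 4.74, 3.96 and 4.50 on the WT arrays. Here the groups overlapped almost fully, and the difference of -0.11 (SE 0.24) became 0.08 without KO replicate 1. Cdca8 (borealin) read 4.24, 4.89 and 5.41 on the KO arrays and 5.16, 4.97 and 5.36 on the WT arrays. Cdca8 and the scaffold Incenp differed by -0.32 and -0.17, and by -0.01 and 0.03 without KO replicate 1.

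Centromere and kinetochore genes showed a smaller gap, at 4.74, 5.21 and 5.52 on the KO arrays and 5.52, 5.09 and 5.81 on the WT arrays over 7 genes. Cenpf, a large kinetochore protein, read 3.54, 3.80 and 4.01 on the KO arrays and 4.16, 3.90 and 4.43 on the WT arrays, and differed by -0.38 (SE 0.16, adjusted p = 0.365 by limma). The kinetochore motor Cenpe read 3.36, 3.99 and 4.35 on the KO arrays and 4.37, 3.87 and 4.79 on the WT arrays, where KO replicates 2 and 3 lay inside the WT range. The 4 subunits of the microtubule-binding NDC80 complex, Ndc80, Nuf2, Spc24 and Spc25, differed by -0.32, -0.56, -0.17 and -0.35, and by -0.10, -0.09, -0.04 and -0.10 without KO replicate 1. Cenpa, the histone H3 variant of centromeres, read 7.93, 7.86 and 7.95 on the KO arrays and 7.90, 7.91 and 8.03 on the WT arrays. Its difference of -0.03 (SE 0.08) was the smallest of the 48 genes, and no array stood out.

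Spindle motors and assembly factors spanned the widest range among WT arrays. Over 4 genes they averaged 4.04, 5.16 and 5.75 on the KO arrays and 5.76, 5.00 and 6.09 on the WT arrays. Tpx2, which activates aurora A on the spindle, read 4.35, 5.84 and 6.44 on the KO arrays and 6.49, 5.85 and 6.81 on the WT arrays. Its difference was -0.84 (SE 0.47, adjusted p = 0.530 by limma) with all arrays and -0.24 without KO replicate 1. The chromosome-associated kinesin Kif4 read 3.12, 3.55 and 3.84 on the KO arrays and 4.07, 3.44 and 4.28 on the WT arrays, near the array medians throughout. Kif11, the motor that separates spindle poles, and Kif2c, which dismantles microtubules at kinetochores, differed by -0.53 and -0.72, and by -0.02 and -0.14 without KO replicate 1.

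All 7 genes of the central spindle and cytokinesis had KO replicate 1 at least 1 log2 unit below the mean of KO replicates 2 and 3. They averaged 4.50, 5.63 and 6.33 on the KO arrays and 6.16, 5.56 and 6.62 on the WT arrays, so KO replicate 3 was above WT replicate 1. Prc1, which bundles the midzone microtubules, read 4.03, 5.35 and 6.10 on the KO arrays and 6.11, 5.41 and 6.66 on the WT arrays. Racgap1, a subunit of centralspindlin, read 4.60, 6.13 and 6.73 on the KO arrays and 6.76, 6.11 and 7.22 on the WT arrays. In both genes KO replicate 1 was more than 2 log2 units below the WT mean while KO replicate 2 lay next to WT replicate 2, and the differences were -0.90 (SE 0.49) and -0.88 (SE 0.49). Ect2, Anln, Kif20a and Kif20b, which act in furrow formation and the midzone, differed by -0.67, -0.71, -0.51 and -0.47. Without KO replicate 1 these 4 differences were -0.22, -0.17, -0.05 and -0.08. Kif23, the motor of centralspindlin, differed by -0.27 (SE 0.38) on all arrays and by 0.18 (SE 0.26) without KO replicate 1.

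Condensin subunits and other genes of mitotic chromosomes averaged 5.38, 6.46 and 6.95 on the KO arrays and 7.15, 6.32 and 7.24 on the WT arrays over 6 genes. Mki67, which encodes the proliferation marker Ki-67, read 4.82, 6.59 and 7.09 on the KO arrays and 7.30, 6.68 and 7.26 on the WT arrays. KO replicate 1 minus the WT mean was -2.26, and the difference of -0.91 (SE 0.49, adjusted p = 0.512 by limma) was -0.24 without it. Top2a, the topoisomerase that untangles sister chromatids, read 5.64, 7.09 and 7.77 on the KO arrays and 7.93, 6.96 and 8.09 on the WT arrays. KO replicate 2 was above WT replicate 2 for Top2a, and its difference of -0.82 (SE 0.50) was -0.23 without KO replicate 1. With its 2 probe sets averaged, the difference of Top2a was -0.42 on all arrays, so its dimmer probe set differed less. Ncapd2, a condensin subunit, read 5.94, 6.63 and 6.98 on the KO arrays and 7.52, 6.76 and 7.48 on the WT arrays, and it differed by -0.73 (SE 0.28, adjusted p = 0.301 by limma). The core condensin ATPases Smc2 and Smc4 differed by -0.66 and -0.14, and Ncapg by -0.55.

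Genes of anaphase and mitotic exit had the smallest gap of the role groups, at 5.50, 5.70 and 6.09 on the KO arrays and 6.09, 5.85 and 6.21 on the WT arrays over 5 genes. Espl1, which encodes separase, the protease that cuts cohesin, read 4.13, 4.50 and 5.16 on the KO arrays and 5.38, 5.19 and 5.29 on the WT arrays. Its groups did not overlap, WT replicate 2 was not set apart from the other WT arrays by more than 0.2, and it differed by -0.68 (SE 0.22, adjusted p = 0.215 by limma) and by -0.45 without KO replicate 1. It was the only one of the 48 genes called under any alternative tried, at -0.97 (adjusted p = 0.0400) without KO replicate 3, within a range of adjusted p from 0.0400 to 0.434. Pttg1, which encodes securin, the inhibitor of separase, read 5.66, 5.58 and 5.74 on the KO arrays and 5.75, 5.84 and 5.89 on the WT arrays. The groups did not overlap but differed by -0.17 (SE 0.09, adjusted p = 0.479 by limma), a value that was again -0.17 without KO replicate 1. Together with Cdc25b these made 3 of 48 genes with all KO arrays below all WT arrays, or 6.25%, against 9.05% of all genes. The same 3 genes kept the groups apart with KO replicate 1 left out, against 13.7% of all genes.

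Of the other genes of mitotic exit, Fzr1, the APC/C activator Cdh1, read 7.90, 7.71 and 8.05 on the KO arrays and 8.01, 7.93 and 8.06 on the WT arrays, with a difference of -0.11 (SE 0.10). Cdc20, the APC/C activator of anaphase, differed by -0.32 and the E2 enzyme Ube2c by -0.14, and by -0.11 and 0.08 without KO replicate 1. Fzr1 and Pttg1, 2 of the 5 genes with no CHR form in the listed window, varied little between arrays. The other 3, Nuf2, Nek2 and Mad2l1, followed the common order, with KO replicate 1 at -1.51, -1.98 and -1.30 relative to the WT mean, while Bub3 and Cenpa, which varied little, have a CHR form.

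**Figure D3:**
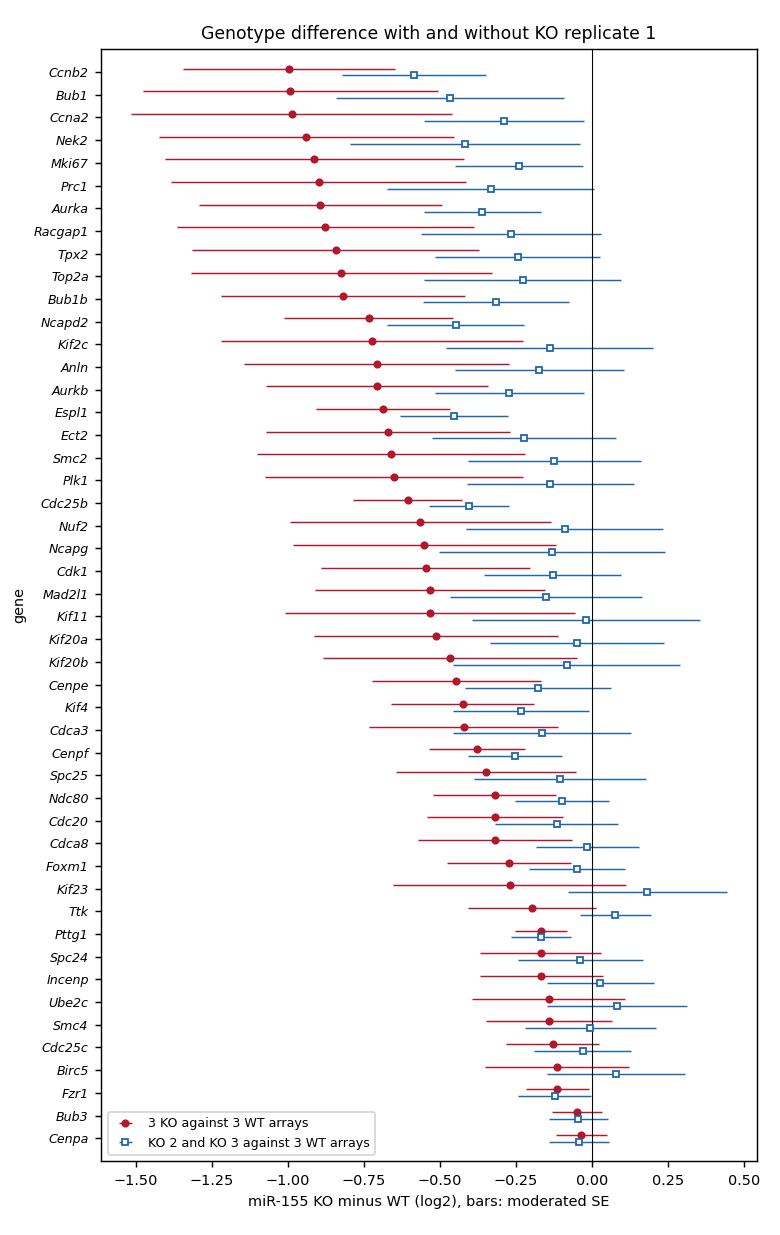
Difference in log2 intensity, miR-155 KO minus WT (horizontal axis), for each of the 48 genes, with all 6 arrays (red circles) and without KO replicate 1 (open blue squares), and bars of 1 moderated SE. All red circles lie below 0, between -0.996 and -0.03, and the blue squares lie between -0.58 and 0.18.

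These genes varied more between arrays of 1 genotype than most genes did. The SD over the 3 KO arrays had a median of 0.75 over the 48 genes, against 0.11 over all genes, and the SD over the 3 WT arrays a median of 0.44, against 0.11 over all genes. In 40 of the 48 genes the KO SD was the larger, as it was in 48.6% of all genes. With 3 arrays per genotype and this spread, the median SE of a difference was 0.35. The 48 genes were also brighter, with a median WT mean of 5.99 against array medians of 3.67 to 3.74. Their spread was not compared with that of genes of like brightness.

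Other mitosis genes, 58 measured genes chosen for their role and not among the 48, had the same order of arrays. They averaged -0.96, -0.33 and 0.06 on the KO arrays and 0.10, -0.40 and 0.29 on the WT arrays, relative to the WT mean. Of the 58, 1 was called higher (0.507% of all genes), 0 lower (0.316% of all genes) and 57 did not pass, with a median difference of -0.44. The gene that rose was Zwint, a kinetochore protein, at 8.56, 8.22 and 8.48 on the KO arrays against 7.81, 7.87 and 7.86 on the WT arrays (0.58, SE 0.10, adjusted p = 0.0474 by limma). All 3 KO arrays were above all WT arrays, but Zwint did not pass without KO replicate 1 (limma, adjusted p = 0.107, within a range of 0.0270 to 0.175 over the alternatives), nor without KO replicate 3 or any 1 WT array, nor with every probe set tested. Depdc1b (-0.88, SE 0.17, adjusted p = 0.0599) and Cks2, a CDK-binding protein (-0.51, SE 0.13, adjusted p = 0.126), came next by limma's p and had KO arrays below WT arrays throughout. Depdc1b passed with quantile normalization, without dim genes and with trend and robust priors.

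Genes of DNA replication and S phase followed as well, at -0.98, -0.22 and 0.01 on the KO arrays and 0.03, -0.25 and 0.21 on the WT arrays over 48 genes. In that list 0 were called higher (0.507% of all genes) and 1 lower (0.316% of all genes), 47 did not pass, and the median difference was -0.40. The gene that fell was Rfc2, a subunit of the clamp loader, at 8.55, 9.01 and 9.06 on the KO arrays against 9.63, 9.58 and 9.74 on the WT arrays (-0.77, SE 0.14, adjusted p = 0.0474 by limma). Rfc2 also fell, by 0.61, with KO replicate 1 left out (limma, adjusted p = 0.0417). It lost the call when KO replicate 2, KO replicate 3 or any 1 WT array was left out, and with every probe set tested. The DNA ligase Lig1 differed by -0.85 and E2f1, an activator of replication genes, by -0.65, and neither passed.

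Among the other cell cycle lists, the inhibitors of the step from G2 to M were mostly low on KO replicate 1. The rest held genes that were high and genes that were low there. The 11 measured G1 cyclins, CDKs and related genes averaged -0.14, -0.08 and 0.12 on the KO arrays and 0.02, -0.04 and 0.02 on the WT arrays, with 0 called in either direction and a median difference of -0.19. These averages cover genes that went both ways, with KO replicate 1 below all WT arrays for 5 of the 11 and above all for 4 (29.9% and 28.8% of all genes). The lowest p by limma were those of Ccnd2 (0.34, SE 0.08, adjusted p = 0.0962), Myc (0.72, SE 0.17, adjusted p = 0.0984) and Rbl2 (-0.33, SE 0.09, adjusted p = 0.139). Without KO replicate 1 these differences were 0.34, 0.65 and -0.28. The 13 APC/C core subunits lay between -0.03 and 0.10 on the KO arrays and between -0.08 and 0.09 on the WT arrays, again with 0 called. In the list of 13 MuvB, MYB and NF-Y regulators 0 were called, as were 0 of the 6 inhibitors of the step from G2 to M. At an unadjusted p under 0.05 by limma these 4 lists held 5, 0, 1 and 0 genes in either direction, against 12.7% of all genes. The inhibitors of the step from G2 to M averaged -0.62 on KO replicate 1, which was below all WT arrays for 5 of the 6. Among 11 CDK inhibitors and genes linked to quiescence 1 was called higher (0.507% of all genes), 0 lower (0.316% of all genes) and 10 did not pass. KO replicate 1 was below all WT arrays for 4 of them and above all for 4. Btg1, an antiproliferative gene, rose to 11.47, 11.00 and 11.15 on the KO arrays, against 10.47, 10.49 and 10.50 on the WT arrays (0.72, SE 0.12, adjusted p = 0.0375 by limma). It also passed by limma without KO replicate 1 (0.59, adjusted p = 0.0440). It did not pass without KO replicate 3, without any 1 WT array or with every probe set tested. Cdkn1b, which encodes the CDK inhibitor p27, differed by -0.51 (SE 0.10, adjusted p = 0.0625), and Cdkn2b, the inhibitor p15, by 0.82 (SE 0.18, adjusted p = 0.0880).

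**Figure D4:**
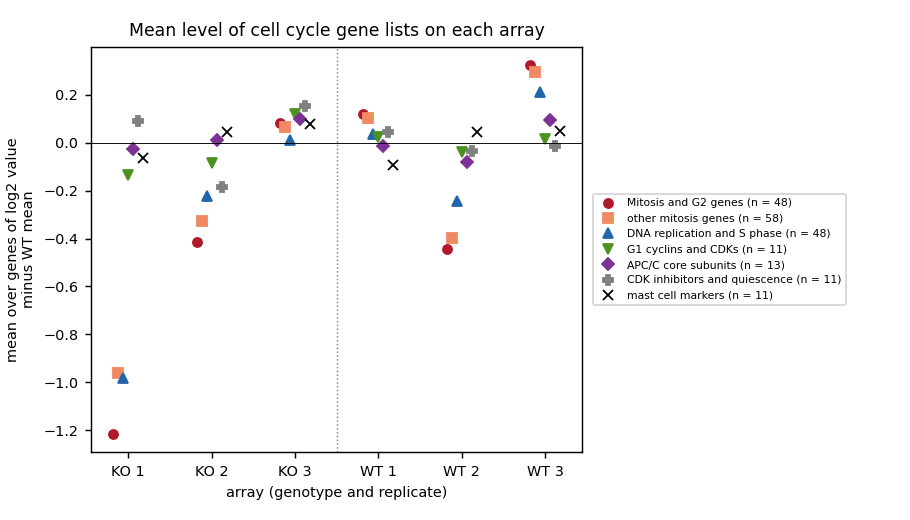
Mean over the genes of each list of the log2 value minus the WT mean (vertical axis), on each array (horizontal axis), 1 symbol per list. The inhibitors of the step from G2 to M, at -0.62 on KO 1, and the MuvB, MYB and NF-Y regulators are not drawn. The mitosis and S phase lists lie between -1.22 and -0.96 on KO 1 and dip on KO 2 and WT 2, while the means of the G1, APC/C, CDK inhibitor and mast cell lists, whose genes went both ways on KO 1, stay between -0.18 and 0.15.

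Mcpt8 and Prss34, 2 markers of basophils, which can arise in the same cultures, were low on some of the same arrays. Mcpt8, a basophil protease, read 5.64, 6.18 and 7.58 on the KO arrays and 7.56, 5.23 and 7.26 on the WT arrays. Prss34, another, read 3.99, 4.12 and 4.65 on the KO arrays and 5.10, 4.11 and 5.61 on the WT arrays. For both genes KO replicate 1, KO replicate 2 and WT replicate 2 were the 3 lowest arrays, as they were for most mitosis genes, though for Mcpt8 the lowest was WT replicate 2. This held for 2 of the 7 measured basophil and eosinophil markers, against 6.18% of all genes. Both the 2 markers and the trio of arrays were picked after the values were seen, so this share is only a description. Cd200r3, the brightest of the 7, did not follow. It read 8.51, 8.51 and 8.50 on the KO arrays and 8.36, 8.32 and 8.57 on the WT arrays. Epx and Ccr3 were highest on KO replicate 1, at 3.46 and 3.44, and Prg2 was lowest there, at 3.15. Summed on the linear scale, the 7 markers came to 473 to 618 on the KO arrays and 416 to 622 on the WT arrays. Cd200r3 made up most of that sum on every array, so the sum says little about Mcpt8 and Prss34. Of the 7, 4 were under 4 on every array, among them the eosinophil genes Prg2 and Epx. The part of these cells in the level of the mitosis genes was not tested. Of 13 neutrophil markers 13 were under 4 on every array, as were 10 of 11 lymphocyte markers and 9 of 11 macrophage and monocyte markers. The macrophage and monocyte sum, summed in the same way, was 473 to 664 on the KO arrays and 828 to 971 on the WT arrays. Only Cx3cr1 and Cd68 of that list were above 4, so the sum says little about the other 9 markers. Cx3cr1, a chemokine receptor, fell by 0.95 (adjusted p = 0.0280 by limma, and 0.0585 without KO replicate 1), and its part in the level of the mitosis genes was not tested.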

How the data were processed

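RNA from 6 mast cell cultures, 3 miR-155 KO and 3 WT, was measured on 1 array each. The deposited values are log2 intensities that the authors made with RMA, per the submitters' processing notes, whose version the labels leave out. Columns were matched to samples by name and were not normalized further. Of 35557 probe sets, the platform annotation gave 21789 exactly 1 symbol. Per symbol the probe set with the highest mean was kept, which left 19938 genes. Genotype was the only term of a linear model per gene (lmFit and eBayes of limma 3.58.1, R 4.3.3), with 4 residual degrees of freedom and two-sided tests, and p-values were adjusted by Benjamini-Hochberg over all genes. SE is the moderated standard error. The fit was tested on simulated data with independent noise and no outlying array, so that test does not cover an array like KO replicate 1. Genes given with array values are the 2 with the lowest p in each role group and some fixed by name; Ccna2, Cenpa and the markers were added after their values were seen. The genes and lists were chosen with earlier results of these data known. The number of arrays limits the precision. In this model, replicate numbers were not taken as pairs of cultures. Plots were drawn with matplotlib 3.10.9.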

Additional observations from a re-analysis of the deposited data

How the results depend on the processing

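The alternatives were a replicate block, median centring, quantile normalization, no dim genes, array weights, priors with trend and robust settings, probe sets of a gene averaged, every probe set tested, the median in place of the mean of the genes, and 1 array omitted at a time. The number of the 48 mitosis and G2 genes called lower in miR-155 KO was 0 in all of these except without KO replicate 3, where it was 1 (Espl1), so that the fits without 1 array gave 0 to 1. The number called higher was 0 throughout. The mean difference of the 48 genes kept its sign in every setting. It ran from -0.82 to -0.17 over the fits without 1 array, and was -0.36 with array weights, which gave KO replicate 1 the lowest weight (0.646), and between -0.59 and -0.50 in the other settings. Among the genes given by array, the difference of Birc5 ran from -0.34 to 0.080 over the fits without 1 array and was positive without KO replicate 1 and without WT replicate 1 (0.057), and the cause was not tested. That of Cenpa, near 0 throughout, also changed sign, and ran from -0.059 to 0.0078 over all fits. Over the 160 genes of the 7 other cell cycle lists, 1 was called lower and 2 higher (0.316% and 0.507% of all genes). The count of lower genes was 2 with the replicate block, 2 with quantile normalization, 2 without dim genes, 3 with trend and robust priors and 0 with every probe set tested, and 0 to 1 without 1 array. The count of higher genes was 3 with trend and robust priors (Ccnd2 added), 0 with every probe set tested and 0 to 4 without 1 array. It was 2 with the replicate block, where Zwint lost its call (adjusted p = 0.0686 by limma) and Myc gained one. Depdc1b was the gene added to the lower ones there. Among all 19938 genes, the fits without 1 array called 2 to 40 lower and 13 to 127 higher. Same-numbered KO and WT arrays deviated from their group means with correlations of -0.01, -0.06 and 0.24 across genes, so the numbers were not taken as pairs. With the replicate block 0 of the 48 genes were called (0.998% of all genes), with a lowest adjusted p of 0.0645 (limma, Cdc25b) and 10 genes at an unadjusted p under 0.05, all lower in KO (7.2% of all genes). Probe sets near the array medians, such as those of Cdc25c, Ttk and Kif4, limit what could be seen.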
